A study of Saccharomyces cerevisiae with 7 samples.

Results

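The genes described here are the budding yeast autophagy genes, taken as every counted feature whose name is ATG followed only by digits. There are 31 of them among 6341 features, and all 31 passed the filter on low counts. Sequencing measured the mRNA bound to ribosomes in 7 libraries. Group Minus_Rps26 (3 libraries) holds the TAP-tagged ribosomes that lack Rps26, a small-subunit ribosomal protein at the mRNA exit channel, taken up on IgG beads and released by TEV cleavage. Group Plus_Rps26 (3 libraries) holds the untagged, Rps26-containing ribosomes that the beads left behind, recovered from sucrose gradients. Ribosome class and way of isolation thus go together and cannot be told apart between these groups. Both groups come from 1 strain of BY4741 (S288C) background in which RPS3 (HisMX6::pGAL1-Rps3) and RPS26A (NatMX6::pGAL1-Rps26A) stand under the galactose-driven GAL1 promoter, RPS26B is deleted (Rps26B::KanMX6) and the plasmid pCM189 carries Rps3-TAP. Its cells grew in galactose medium with 0.2 µg/ml doxycycline and then for 4 h in glucose medium without it, so every library of this strain was made after a shift in carbon source. Rps3_TAP (1 library) holds bead-purified ribosomes of a different BY4741 strain, Rps3-TAP::HisMX6, grown in glucose medium to mid-log phase. All cultures received 100 µg/ml cycloheximide, which holds ribosomes on mRNA.

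Autophagy carries cytoplasm, organelles and enzyme cargo to the vacuole, the yeast counterpart of the lysosome, inside double-membrane vesicles called autophagosomes. The Atg1 kinase complex starts the process, a lipid kinase and Atg9 vesicles build the membrane, ubiquitin-like proteins are joined to lipid and to each other to expand it, receptors pick the cargo, and vacuolar enzymes break it down. Starvation for nitrogen or carbon induces it, while TOR complex 1 and protein kinase A hold it down in rich medium. In growing cells a selective form, the Cvt pathway, delivers aminopeptidase I to the vacuole with much of the same machinery.

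The study asked whether the 2 ribosome classes bind mRNAs that differ before the start codon, so the sequences there are shown for the members on which the results turn. These are the 20 bases before the start codon from the authors' deposited column, 5′ to 3′, with positions -4 to -1 in capitals. The first 3 passed the test between the classes, ATG31 and ATG32 passed it against Rps3_TAP, and ATG1 and ATG8 encode the starting kinase and the lipid-linked ubiquitin-like protein.
ATG11: tttattttcttttataCATC
ATG5: aggaaacctatgatgtAAGT
ATG36: gtggtcagtacagctcATTA
ATG31: gctgaaatctgcgaacAGGA
ATG32: ctgccaggaacagtaaACAT
ATG1: ccagacgagaaattaaGAAA
ATG8: ataaaataattactagAGAC

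Library totals ran from 11590456 to 21405499 counts in Minus_Rps26 and from 9605899 to 15279242 in Plus_Rps26, with 16145589 in Rps3_TAP. Levels are given from here as CPM, the count of a gene per 1000000 counts of its library after edgeR's trimmed-mean scaling over the 7 libraries. RPS26A, the gene put under galactose control, lay between 25.4 and 44.2 CPM in Minus_Rps26 and between 48.2 and 111 CPM in Plus_Rps26, against 10100 CPM in Rps3_TAP. Its mRNA was thus low in both groups of the depletion strain, and the Rps26 protein of the ribosomes was not measured here. RPS26B, deleted in it, had 13 to 17 counts in Minus_Rps26, 10, 142 and 11 in Plus_Rps26 and 14293 in Rps3_TAP. RPS3, also under galactose control and carried on the plasmid, had 1450, 3560 and 2090 CPM in Minus_Rps26 and 348, 6300 and 8330 CPM in Plus_Rps26, against 7820 CPM in Rps3_TAP, so that Plus_Rps26 replicate 1 stood far below replicates 2 and 3. Each member had at least 27 counts in every library. Of nuclear protein-coding counts, the 31 genes together took 0.139%, 0.156% and 0.156% in Minus_Rps26 (replicates 1, 2 and 3 in turn, as in every list of levels), against 0.105%, 0.093% and 0.093% in Plus_Rps26 and 0.072% in Rps3_TAP. These shares are unscaled and move with the abundant messages as well as with the autophagy genes. RNA outside ribosomes was not analysed here, so the amount of an mRNA and its binding by ribosomes cannot be told apart.

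Autophagy messages were mostly scarce. Set per kb of coding length and averaged over the 7 libraries, they ran from 4.00 CPM per kb for ATG9 to 127 for ATG5, with a median of 18.1, against a median of 39.4 over 5611 nuclear protein-coding genes. Only 6 members lay above the middle of those genes, namely ATG5 (percentile 80.7), ATG27 (77.7), ATG19 (55.1), ATG8 (54.4), ATG26 (51.0) and ATG36 (50.8). Messages of ATG9 (5.3), ATG2 (6.7), ATG17 (8.2) and ATG13 (8.6) lay under the tenth percentile. Core genes differed in level, with the lipid-linked ubiquitin-like ATG8 at 45.3 CPM per kb, the kinase ATG1 at 10.3 and its partner ATG13 at 6.97. The neighbouring paralogs ATG19 and ATG34 on chromosome XV, receptors that bring vacuolar enzymes as cargo, stood at 46.4 and 11.2 CPM per kb. Across libraries ATG26 varied most, 9.87-fold between its highest and its lowest, followed by ATG31 (8.22-fold), ATG5 (7.16-fold) and ATG36 (6.91-fold). ATG4, the protease that processes Atg8, varied 1.39-fold and ATG27 1.60-fold.

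**Figure D1:**
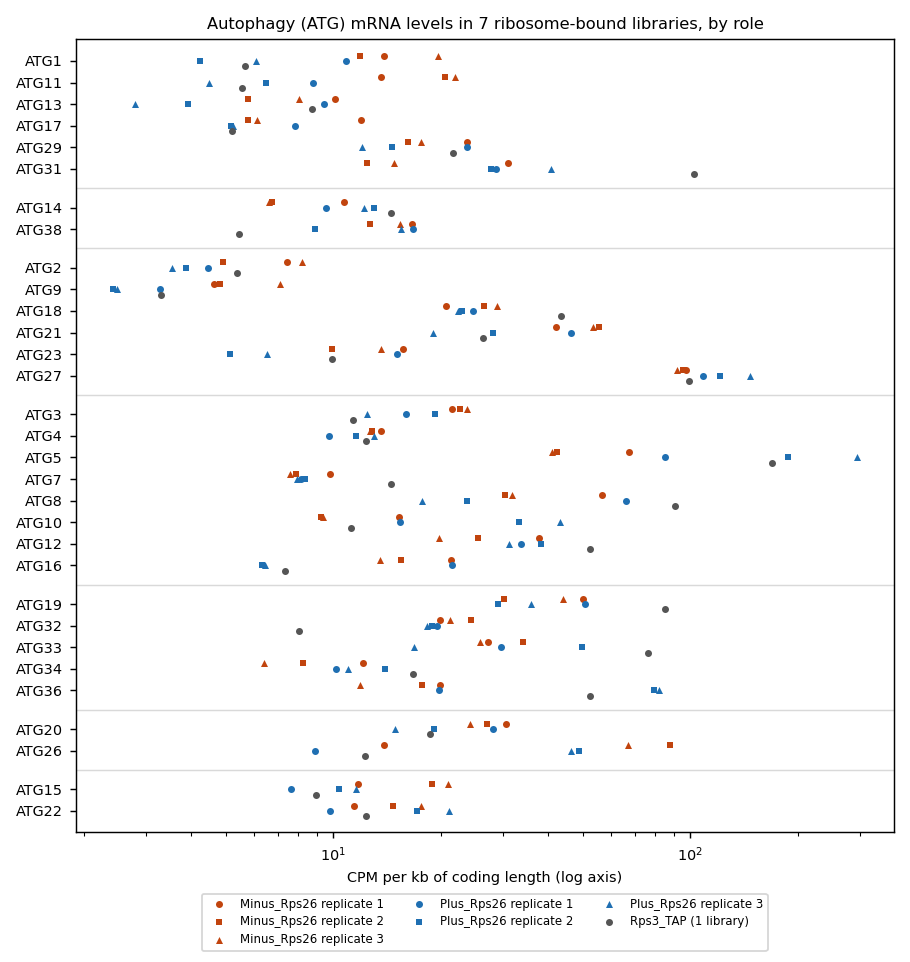
CPM per kb of coding length (log axis) of 31 ATG genes in each library, grouped by role (initiation, lipid kinase, Atg9 vesicles and lipid transfer, conjugation, receptors, sorting nexins and other, vacuolar breakdown). ATG5 and ATG27 lie furthest to the right, and ATG26, ATG5, ATG36 and ATG31 spread most between libraries.

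Between Minus_Rps26 and Plus_Rps26, 1 autophagy gene rose and 2 fell. ATG11, the scaffold of selective autophagy, was 2.84-fold higher in Minus_Rps26, while ATG5, a subunit of the conjugation machinery, was 3.77-fold lower and ATG36, the receptor that marks peroxisomes for degradation, 3.67-fold lower. The other 28 did not reach the threshold of 0.05, set on p-values of the quasi-likelihood test (edgeR) adjusted over 5668 features; at an unadjusted p under 0.05 there were 8 members, where 37.4% of all features were. Over all features 8.10% rose and 7.90% fell, together 16.0%, so the members' 3 of 31 were no more than the background. The median log2 fold change (Minus_Rps26 over Plus_Rps26) was 0.18 over the members and 0.03 over all features. It was above 0 in 21 of 31 members and in 2908 of 5668 features. Libraries of the groups did not overlap for 7 members that were higher and 3 that were lower in Minus_Rps26, where 21.0% and 17.4% of all features did the same, 38.3% in all. The calls rest on most of the libraries. None of the 3 passed without Minus_Rps26 replicate 2 or 3 or Plus_Rps26 replicate 2 or 3, where 0 of all features passed. ATG5 and ATG36 also missed without Minus_Rps26 replicate 1 (edgeR adjusted p = 0.0516 and 0.0643), where 3.76% of all features passed. Without Plus_Rps26 replicate 1 there were 10 calls among the members, where 43.6% of all features were called. ATG11, ATG5 and ATG36 did not pass with the replicate number as a block (edgeR adjusted p = 0.117, 0.117 and 0.127), where 0 of all features passed. With library totals as the only scaling, the middle value over all features moved to 0.75, all calls split into 1042 higher and 37 lower against 459 and 448, and ATG11, ATG5 and ATG36 stood at 2.15, -0.98 and -0.93.

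**Figure D2:**
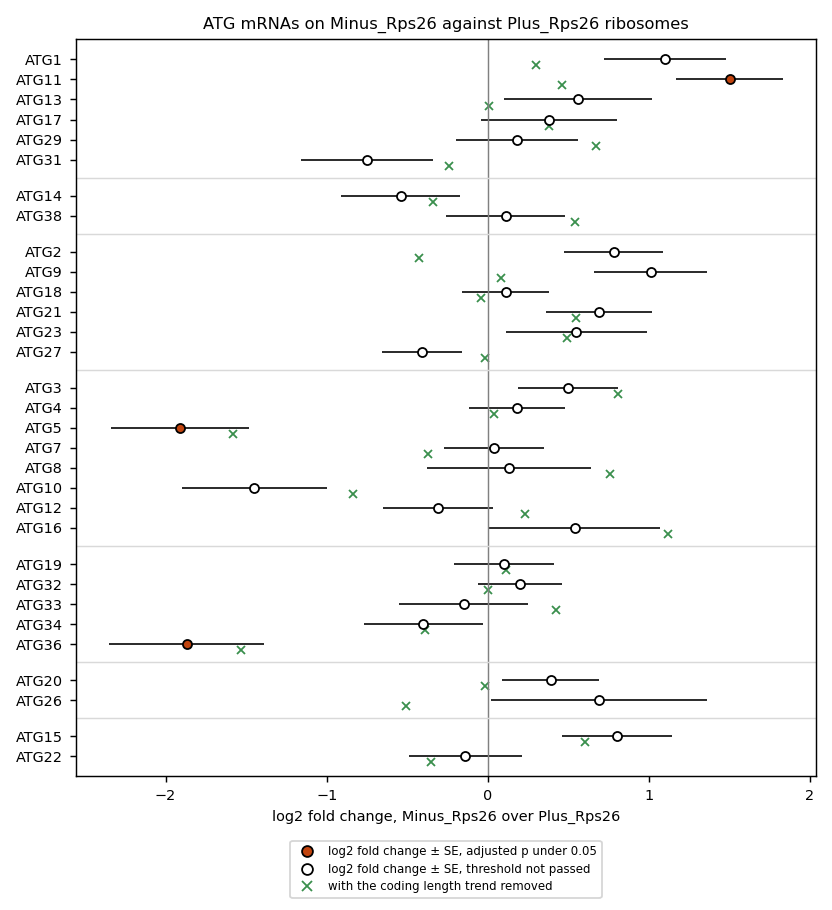
Log2 fold change of Minus_Rps26 over Plus_Rps26 (horizontal axis) with its SE for 31 ATG genes by role, filled where the adjusted p was under 0.05; crosses give the value with the coding length trend removed. ATG11 is filled at the right, ATG5 and ATG36 at the left, and with the trend removed ATG11 lies at 0.46 while ATG5 and ATG36 lie at -1.58 and -1.53.

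In the initiation complex, ATG11 (YPR049C, chromosome XVI, 661137 to 664673 in R64, the assembly of sacCer3) had 48.2, 72.8 and 77.9 CPM in Minus_Rps26, against 31.0, 23.0 and 15.9 CPM in Plus_Rps26. Every Minus_Rps26 library was above every Plus_Rps26 library, and the log2 fold change was 1.50 ± 0.33 (SE; edgeR adjusted p = 0.0357). ATG1 (YGL180W), the protein kinase that starts autophagosome formation, had 37.4, 32.1 and 53.0 CPM in Minus_Rps26 and 29.3, 11.4 and 16.4 CPM in Plus_Rps26. Its groups did not overlap either, but its log2 fold change was 1.10 ± 0.38 (SE) and did not pass (adjusted p = 0.0653). ATG13 (YPR185W), the regulatory subunit that TOR complex 1 keeps phosphorylated, had 22.4, 12.8 and 17.8 CPM in Minus_Rps26 and 20.9, 8.7 and 6.2 CPM in Plus_Rps26, overlapping groups with a log2 fold change of 0.56 ± 0.46 (SE). ATG17, ATG29 and ATG31 form the scaffold that gathers the complex under starvation. They stood at log2 fold changes of 0.38, 0.18 and -0.75 and did not pass. ATG31, the most abundant message of the complex per kb, had 18.3, 7.4 and 8.8 CPM in Minus_Rps26 and 16.9, 16.4 and 24.1 CPM in Plus_Rps26. Of these 6 genes 1 rose and 0 fell, where 8.10% of all features rose and 7.90% fell.

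Genes of membrane supply did not pass in edgeR. Of the 6 genes of Atg9 vesicles and lipid transfer 2 had an unadjusted p under 0.05, as did 37.4% of all features. DESeq2 called 1 of the 6, ATG9, and 27.7% of all features. ATG14 and ATG38 encode subunits particular to lipid kinase complex I, which makes phosphatidylinositol 3-phosphate on the forming membrane, and stood at log2 fold changes of -0.54 and 0.11. Averaged over the 7 libraries ATG38 was the more abundant of them per kb, though in Rps3_TAP ATG14 was (14.5 against 5.45 CPM per kb). ATG38 had 12.3, 9.4 and 11.4 CPM in Minus_Rps26 and 12.4, 6.6 and 11.5 CPM in Plus_Rps26. ATG9 (YDL149W), the membrane protein whose vesicles seed the autophagosome, had 13.9, 14.4 and 21.2 CPM in Minus_Rps26 and 9.8, 7.2 and 7.4 CPM in Plus_Rps26. All its Minus_Rps26 libraries were higher, and the log2 fold change, 1.01 ± 0.35 (SE), did not pass (edgeR, adjusted p = 0.0666). ATG2, which moves lipid into the growing membrane, also had groups that did not overlap (0.78 ± 0.31 SE; edgeR adjusted p = 0.0921). ATG18 and ATG21, whose products bind phosphatidylinositol 3-phosphate, stood at 0.11 and 0.69. Of the factors that help Atg9 traffic, ATG23 stood at 0.55 and ATG27 at -0.41. ATG27 had 79.7, 78.1 and 74.9 CPM in Minus_Rps26 and 88.6, 98.9 and 120 CPM in Plus_Rps26, so its groups were separate by a small margin (0.41 ± 0.25 SE lower on the log2 scale).

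The conjugation genes held the lowest log2 fold change of the members. ATG5 (YPL149W, chromosome XVI, 271310 to 272194), which is joined to Atg12 and with Atg16 directs Atg8 to lipid, had 59.7, 37.6 and 36.3 CPM in Minus_Rps26 and 75.3, 166 and 260 CPM in Plus_Rps26. The groups did not overlap, and replicates 2 and 3 of Plus_Rps26 stood far above replicate 1; the log2 fold change was -1.91 ± 0.43 (SE; edgeR adjusted p = 0.0357). The other 7 genes of this machinery did not pass. ATG10, the enzyme that joins Atg12 to Atg5, had 7.7, 4.7 and 4.7 CPM in Minus_Rps26 and 7.8, 16.7 and 21.8 CPM in Plus_Rps26, which put its log2 fold change, -1.45 ± 0.45 (SE), just outside the threshold (edgeR, adjusted p = 0.0514). ATG12 and ATG16, whose products act with these, stood at -0.31 and 0.54. The activating enzyme ATG7, the conjugating enzyme ATG3 and the protease ATG4 stood at 0.04, 0.50 and 0.18. ATG8 (YBL078C), the shortest member with 354 coding bases, had 20.1, 10.7 and 11.2 CPM in Minus_Rps26 and 23.4, 8.4 and 6.3 CPM in Plus_Rps26. Replicate 1 was the highest in both of its groups, which overlapped (0.13 ± 0.51 SE).

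Among receptors of selective autophagy, ATG36 (YJL185C, chromosome X, 82095 to 82976) had 17.6, 15.7 and 10.5 CPM in Minus_Rps26 and 17.5, 69.9 and 72.4 CPM in Plus_Rps26. Its groups touched through replicate 1, where both classes had the same level, and the log2 fold change was -1.87 ± 0.48 (SE; edgeR adjusted p = 0.0365). ATG19, the Cvt receptor, had 62.7, 37.7 and 54.9 CPM in Minus_Rps26 and 63.5, 36.2 and 44.6 CPM in Plus_Rps26, and its paralog ATG34 stood at a log2 fold change of -0.40. The mitophagy receptor gene ATG32 had 31.6, 38.7 and 33.9 CPM in Minus_Rps26 and 31.0, 30.0 and 29.2 CPM in Plus_Rps26. Its groups were separate by a small margin and it did not pass (0.20 ± 0.26 SE), nor did ATG33, which also takes part in mitophagy (-0.15).

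ATG20, a sorting nexin, stood at 0.39 ± 0.30 (SE) and did not pass, nor did ATG26 (YLR189C, chromosome XII, 530797 to 534393), a sterol glucosyltransferase. ATG26 had 49.8, 316 and 241 CPM in Minus_Rps26 and 32.0, 176 and 167 CPM in Plus_Rps26, against 44.3 CPM in Rps3_TAP. Replicates 2 and 3 of both classes were far above replicate 1, so the groups overlapped, although within each replicate Minus_Rps26 was the higher. In the vacuole, the lipase gene ATG15, whose product opens the delivered vesicles, stood at 0.80 ± 0.34 (SE; edgeR adjusted p = 0.112). ATG22, an exporter of amino acids, had 18.2, 23.4 and 27.9 CPM in Minus_Rps26 and 15.6, 27.2 and 33.6 CPM in Plus_Rps26, with overlapping groups.

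**Figure D3:**
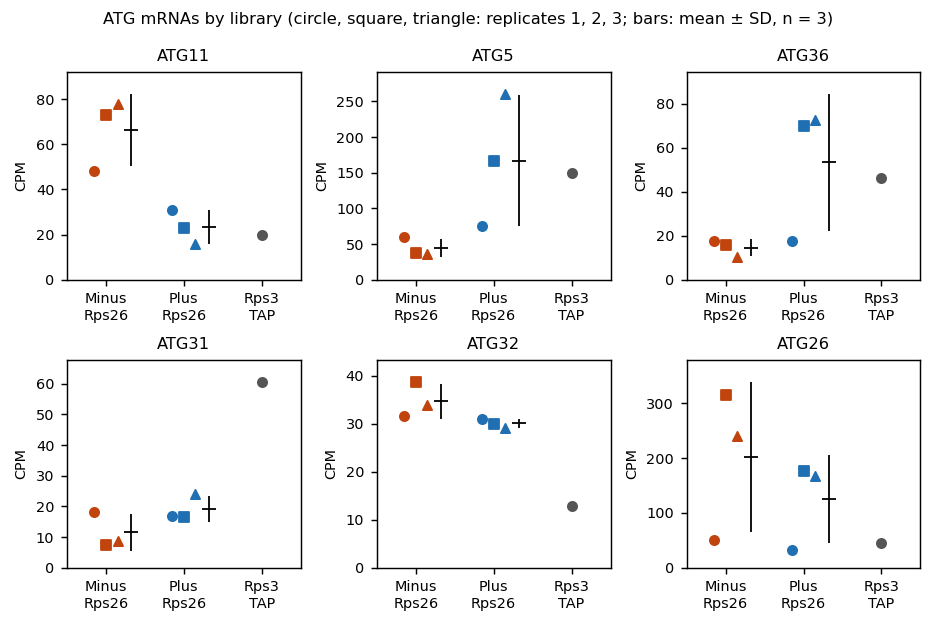
CPM (vertical axes, from 0) of 6 ATG genes in Minus_Rps26, Plus_Rps26 and Rps3_TAP; points are libraries and bars the mean ± SD of 3. ATG11 is higher and ATG5 lower in every Minus_Rps26 library, ATG31 is highest and ATG32 lowest in Rps3_TAP, and ATG26 separates replicates 2 and 3 from replicate 1.

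By the protocol an eluate and a flowthrough come from 1 lysate, and libraries of the same number were taken as such a pair to read the ratio within each replicate. The pairing rests on the numbers in the titles, and the description of Plus_Rps26 replicate 2 carries a flowthrough number 1. After subtraction of group means, libraries of the same number correlated at -0.2, 0.45 and 0.01. The log2 ratios of ATG11 were 0.64, 1.66 and 2.29 in replicates 1, 2 and 3, those of ATG5 were -0.33, -2.15 and -2.84, and those of ATG36 were 0.01, -2.15 and -2.79. For each called gene replicate 1 lay nearest to 0. ATG10 behaved alike, at -0.02, -1.84 and -2.20, and ATG13 stood at 0.10, 0.55 and 1.52. Others varied less between replicates, with ATG15 at 0.61, 0.86 and 0.85 and ATG26 at 0.64, 0.85 and 0.53. Across the 31 genes the ratios of replicates 2 and 3 correlated at 0.94, those of replicates 1 and 2 at 0.41 and those of replicates 1 and 3 at 0.39 (Pearson, across genes of the same libraries, which are not independent), against 0.91, 0.17 and 0.23 over all 5668 features. In 15 of 31 members the sign was the same in all 3 replicates, as in 58.2% of all features. Without both libraries of replicate 1, 5 members passed as higher (ATG1, ATG9, ATG11, ATG15 and ATG21) and 4 as lower (ATG5, ATG10, ATG31 and ATG36), where 2671 features (47.0%) were called. RPS3 set Plus_Rps26 replicate 1 apart from replicates 2 and 3 as well, and the part of this in the ratios was not tested.

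**Figure D4:**
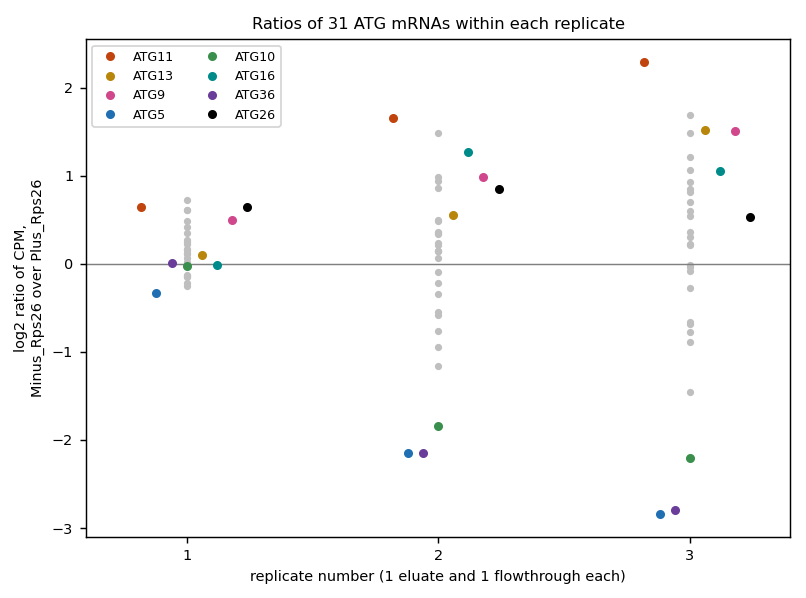
Log2 ratio of CPM in Minus_Rps26 over Plus_Rps26 (vertical axis) of 31 ATG genes within replicates 1, 2 and 3; 8 genes are coloured and shifted sideways. Replicate 1 is narrow, and replicates 2 and 3 hold ATG11 at the top and ATG5, ATG36 and ATG10 at the bottom.

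Coding length moved with these values. Over 5534 nuclear protein-coding genes the log2 fold change rank-correlated with coding length at 0.69, and over the members at 0.65 (Spearman, across genes). The 5 members longer than 2500 bases, ATG1, ATG2, ATG9, ATG11 and ATG26, all stood between 0.69 and 1.50, with a median of 1.01 against 1.03 for all 767 genes over 2500 bases. The 6 of 600 bases or less ran from -1.45 to 0.54, with a median of -0.23 against -0.67 for 883 genes. With the trend of each library with coding length removed, ATG11 moved to 0.46, ATG1 to 0.30 and ATG9 to 0.08, ATG2 and ATG26 turned to -0.43 and -0.51, and ATG5 and ATG36 stood at -1.58 and -1.53. ATG5 and ATG36, of 885 and 882 bases, lie in the class over 600 and up to 1000 bases, whose median over 1214 genes was -0.38. In that setting edgeR called 0 features (1033 at an unadjusted p under 0.05, 3 of them members). The part of coding length in the calls cannot be read further from these libraries.

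**Figure D5:**
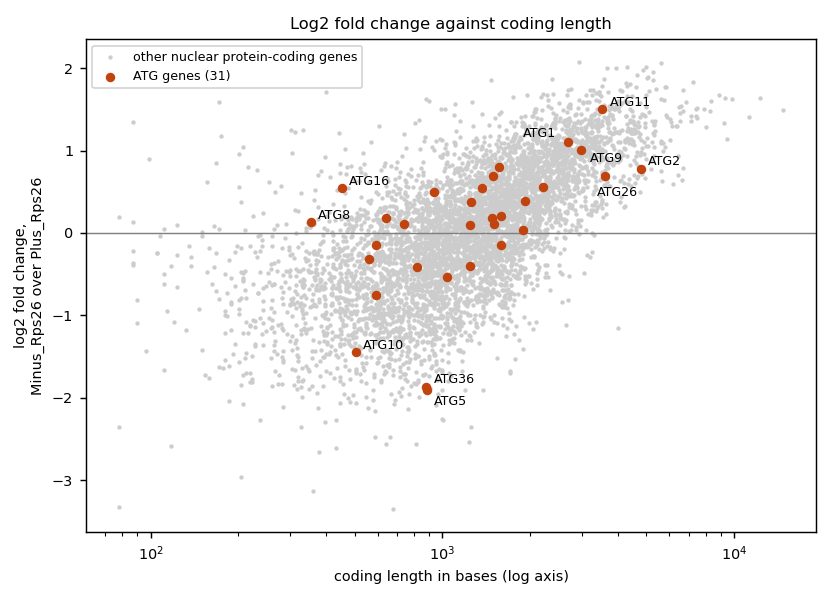
Log2 fold change of Minus_Rps26 over Plus_Rps26 (vertical axis) against coding length (log axis) for 31 ATG genes and the other nuclear protein-coding genes tested. The ATG genes follow the slope of all genes, with ATG5 and ATG36 below it.

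The start contexts printed above differ among the called members. At -4, ATG5 and ATG36, which fell, carry A, while ATG11, which rose, carries C. A stood at -4 in 12 of 31 members (38.7%) and in 43.8% of 5520 genes with a deposited context, and G in 5 members (16.1%) and 14.9% of genes. At -3, A was present in 13 members (41.9%) against 61.2% of genes, and T in 7 (22.6%) against 10.7%. None of the 31 had A at all of the last 4 positions, as 6.29% of genes did. The 5 members with G at -4, ATG1, ATG9, ATG18, ATG19 and ATG21, had log2 fold changes from 0.10 to 1.10 with a median of 0.69, and the 12 with A from -1.91 to 0.69 with a median of 0.16; over all genes the medians were 0.10 and 0.01. Members with A at -3 had a median of 0.39 and those with T 0.18, against -0.03 and 0.14 over all genes. With the coding length trend removed, the 5 members with G at -4 ran from -0.04 to 0.55. The 12 with A at -4 then ran from -1.58 to 0.76. These are counts over few genes, given without a test, and the part of coding length in the medians was not tested.

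Against Rps3_TAP, the ribosomes of cells that make Rps26 throughout, Minus_Rps26 differed in 4 autophagy genes. ATG11 and ATG32 rose and ATG5 and ATG31 fell, 2 of 31 each way, where 10.6% of 5815 features rose and 15.6% fell, together 26.2%. The single Rps3_TAP library is assumed to vary like the others, and strain, culture and carbon source differ with it. ATG31 (YDR022C, chromosome IV, 488072 to 488662) had 18.3, 7.4 and 8.8 CPM in Minus_Rps26 against 60.5 CPM in Rps3_TAP, 5.29-fold lower (log2 fold change -2.40 ± 0.50 SE; edgeR adjusted p = 0.0092). ATG32 (YIL146C, chromosome IX, 74184 to 75773) had 31.6, 38.7 and 33.9 CPM against 12.8 CPM, 2.71-fold higher (1.44 ± 0.41 SE; edgeR adjusted p = 0.029). Both genes lay on their side of Rps3_TAP in every library of the depletion strain, since Plus_Rps26 had 16.9, 16.4 and 24.1 CPM of ATG31 and 31.0, 30.0 and 29.2 CPM of ATG32. ATG11 at 19.7 CPM and ATG5 at 150 CPM in Rps3_TAP were instead nearer to Plus_Rps26, and gave log2 fold changes of 1.75 ± 0.51 and -1.75 ± 0.54 (SE; edgeR adjusted p = 0.0312 and 0.0378) for Minus_Rps26. ATG36, at 46.4 CPM in Rps3_TAP, stood at -1.67 ± 0.61 (SE; edgeR adjusted p = 0.0663). Without Minus_Rps26 replicate 2 or 3 only ATG31 passed, without Plus_Rps26 replicate 1 there were 10 members (41.3% of all features), and with the coding length trend removed ATG31 passed at -1.60 while ATG11, ATG5 and ATG32 did not (0.65, -1.33 and 1.05) and ATG7, ATG18 and ATG38 were called instead. With library totals as the only scaling, the middle value over all features was 1.39 and 2.53% of them passed as lower. ATG5 and ATG31 did not pass there (-0.53 and -1.18).

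Plus_Rps26 against Rps3_TAP gave no call among the 31 genes in edgeR (6 at an unadjusted p under 0.05, against 20.8% of all features; DESeq2 also 0), where 1.48% of features passed, 0.206% as higher and 1.27% as lower. Log2 fold changes ran from -1.66 for ATG31 to 1.50 for ATG26, with a median of 0.13 against 0.07 over all features. ATG8 had 23.4, 8.4 and 6.3 CPM in Plus_Rps26 against 32.1 CPM in Rps3_TAP (-1.33 ± 0.66 SE), and 20.1, 10.7 and 11.2 CPM in Minus_Rps26 (-1.20 ± 0.66 SE). It was thus highest in Rps3_TAP of all 7 libraries, as were ATG18, ATG19, ATG12, ATG7, ATG14, ATG33 and ATG34, none of which passed in either comparison, and ATG31. ATG32, ATG38 and ATG3 were instead lowest there, at 12.8, 4.03 and 10.6 CPM. How many of all features were highest or lowest in that single library was not counted. Without Plus_Rps26 replicate 1, ATG8 and ATG19 passed as lower in Plus_Rps26, as did 6.54% of all features. The comparisons with Rps3_TAP share that library, so their values are set side by side only. Plus_Rps26 also differs from the bead-purified Rps3_TAP in the way of isolation.

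Other genes of the process were counted by list, where 8.10% of all features rose in Minus_Rps26 against Plus_Rps26 and 7.90% fell. Of 8 genes that RefSeq names ATG, as symbol or synonym, but the count files do not, ICY2 (ATG41, which acts with Atg9) and YIL156W-B (ATG44, a factor of mitochondrial division in mitophagy) fell in Minus_Rps26 against Plus_Rps26 (log2 fold changes -1.44 ± 0.40 and -1.56 ± 0.37 SE; edgeR adjusted p = 0.0404 and 0.0357) and 0 rose. ICY2 had 94.2, 52.2 and 54.2 CPM in Minus_Rps26, 95.4, 178 and 270 CPM in Plus_Rps26 and 413 CPM in Rps3_TAP. That list was drawn up after the files were seen. Of 9 partners without an ATG name 0 rose and 1 fell, the secretory GTPase gene SEC4 (-1.27 ± 0.30 SE), with the lipid kinase VPS34 at 0.92 ± 0.30 (SE; edgeR adjusted p = 0.0538). Of 13 genes of vacuole fusion 5 rose, among them VPS41 (1.09 ± 0.27 SE) and VPS16 (0.97 ± 0.26 SE), tethering subunits with coding lengths of 2979 and 2397 bases, and 1 fell, the GTPase gene YPT7 (-0.93 ± 0.26 SE). Of 16 upstream kinases and their subunits 6 rose and 0 fell (8.10% and 7.90% of all features), with GCN2, the kinase of the amino acid starvation response, at 1.53 ± 0.32 and TOR2 at 1.50 ± 0.35 (SE). Of 15 regulators of ATG transcription and mRNA 3 rose and 0 fell (same shares of all features), among them the corepressor gene SIN3 (1.77 ± 0.41 SE) and SPT10 (1.42 ± 0.33 SE). With the coding length trend removed VPS41, VPS16, GCN2, TOR2, SIN3 and SPT10 stood at 0.19, 0.24, 0.22, -0.03, 0.53 and 0.95, and ICY2, YIL156W-B, SEC4 and YPT7 at -0.77, -0.70, -0.75 and -0.40. None of these 10 genes passed with the replicate block or with the trend removed, and in each of these settings 0 of all features passed.

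Among vacuolar hydrolases and cargo the edgeR calls lay in the comparisons with Rps3_TAP. Of 9 genes 0 passed between Minus_Rps26 and Plus_Rps26 in edgeR, where 16.0% of all features did. At an unadjusted p under 0.05 there were 3 (37.4% of all features), and DESeq2 called 2 (27.7% of all features). In Minus_Rps26 against Rps3_TAP 4 fell and 0 rose, where 15.6% of all features fell and 10.6% rose. The list's median there was -1.19 against 0.18 over all features. APE1, the aminopeptidase that is the main cargo of the Cvt pathway, had 25.4, 26.6 and 28.5 CPM in Minus_Rps26, 35.6, 39.7 and 33.5 CPM in Plus_Rps26 and 178 CPM in Rps3_TAP. It fell in both comparisons with Rps3_TAP, by log2 fold changes of -2.73 ± 0.31 in Minus_Rps26 and -2.29 ± 0.31 in Plus_Rps26 (SE; edgeR adjusted p = 0.0016 and 0.00886). APE4, a further aminopeptidase carried by Atg19, fell in Minus_Rps26 (-1.55 ± 0.40 SE; edgeR adjusted p = 0.02). The message of their receptor ATG19 had 106 CPM in Rps3_TAP and stood at -1.03 ± 0.41 in Minus_Rps26 and -1.14 ± 0.41 in Plus_Rps26 (SE), which did not pass.

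In the authors' deposited table of log2 fold changes between the ribosome classes, 6 members had an adjusted p under 0.05, against 29.2% of all features with an adjusted p there. Its sign runs as Minus_Rps26 over Plus_Rps26, as read from its match with the counts. In the authors' deposited table ATG11, ATG1 and ATG9 stood at 1.32, 0.92 and 0.86, and ATG5, ATG36 and ATG10 at -1.74, -1.66 and -1.32. DESeq2 run on the counts called these 6 genes as well, and 27.7% of all features tested. The authors' fold changes for the comparisons with Rps3_TAP were not used here.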

How the data were processed

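Libraries were made with a stranded kit from ribosome-associated RNA after removal of rRNA, per the labels' protocols. The authors deposited raw counts per feature for 7 libraries; per the submitters' processing notes, TopHat2 2.0.9 and the sacCer3 build were used. How reads were counted, and whether by strand, is not given in the sources used here; ATG29 shares 24 bases with SET6, and no other member overlaps an annotated gene. Comparison tables deposited by the authors give log2 fold changes with adjusted p-values, per the file headers (the submitters' processing notes name DESeq2), and 1 table gives 20 upstream bases per gene; their 3 sheets of scaled values (14 columns of libraries) were not used here.

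Members match the feature names; coordinates and coding lengths (gene spans, introns included) are from RefSeq R64, where 31 of 31 matched. Members and lists were chosen with earlier results of these data known. The main test was the quasi-likelihood test of edgeR 4.0.16 under R 4.3.3, after its default filter on low counts and trimmed-mean scaling, with Benjamini-Hochberg adjusted p under 0.05 over all features, on 6 libraries for Minus_Rps26 against Plus_Rps26 and on 7 for the comparisons with Rps3_TAP. The SE was taken as the size of the log2 fold change over √F. Replicate ratios add 0.5 counts. Alternatives were other scaling, DESeq2 1.42.0, limma 3.58.1 (voom), no filter, coding genes alone, a lowess (span 0.3) of each library on coding length removed, a fold of 2 as well, other sets of libraries and a replicate block. The script was tested on simulated data. Eluate and flowthrough of 1 number were taken as paired, since the protocol draws both from 1 lysate; after subtraction of group means, libraries of the same number correlated at -0.20, 0.45 and 0.01. The title of Plus_Rps26 replicate 2 was used where its description carries a flowthrough number 1. The series calls the replicates biological. Full values were given by rule for the called members (in each comparison with Rps3_TAP the 3 highest and 3 lowest), the most abundant member per kb of each role group, and ATG1, ATG8, ATG9 and ATG13; ATG10 and ICY2 were added after their values were seen.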

Additional observations from a re-analysis of the deposited data

How the results depend on the processing

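The counts of members that passed as higher and lower were 1 and 2 for Minus_Rps26 against Plus_Rps26, 2 and 2 for Minus_Rps26 against Rps3_TAP and 0 and 0 for Plus_Rps26 against Rps3_TAP, among 907, 1524 and 86 features called. For Minus_Rps26 against Plus_Rps26 they were 5 and 0 with total counts alone, where 1042 of all features were called higher and 37 lower. With DESeq2 they were 3 and 3 (1569 features) and with limma-voom 1 and 1 (822 features). Without both libraries of replicate 1 they were 5 and 4 (2671 features). They were 0 and 0, with 0 features, with the coding length trend removed, with the replicate block (1990 features at an unadjusted p under 0.05, 9 of them members) and with the replicate block and the trend removed together (1046 and 6). Leaving out 1 library gave 0 to 7 higher and 0 to 3 lower members and 0 to 2495 features. For Minus_Rps26 against Rps3_TAP they were 7 and 0 with total counts alone, where 1644 of all features were called higher and 147 lower. With DESeq2 they were 2 and 4 (1949 features), and with the trend removed 1 and 3 (848 features). When the libraries of these 2 groups were fitted alone they were 4 and 6 (2359 features). Leaving out 1 library gave 0 to 4 higher and 1 to 6 lower members and 615 to 2405 features. For Plus_Rps26 against Rps3_TAP leaving out 1 library gave 0 to 2 lower members and 29 to 586 features; features called were 6 with total counts alone, 437 with DESeq2, 50 with limma-voom, 141 among nuclear coding genes and 4 with these 2 groups fitted alone. No called member changed sign under any of these settings, and of those that were not called 18 of 28, 16 of 27 and 14 of 31 changed sign under at least 1. With total counts alone 7, 10 and 6 of them did, where the median over all features was 0.75, 1.39 and 0.55 in the 3 comparisons. Sign changes over all features were not counted. The causes were not tested. No paired analysis was possible for the comparisons with Rps3_TAP because that group has 1 library. Counts as low as 27 per library limit what can be seen for the scarcest members.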
